A study of Danio rerio with 58 samples.

Results

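The heat shock protein and chaperonin genes were taken as all genes whose symbol began with hsp, dnaj, cct and a number, serpinh1, unc45 or hsf, which gave 107 of the 32057 genes counted. They were 18 HSP70 genes, 4 HSP90 genes, 10 small HSP genes named hspb and a number, 52 DNAJ genes, 8 CCT genes and 15 others. The others were the mitochondrial chaperonin genes hspd1 and hspe1, the HSP110 gene hsph1, the HSP70 exchange factor gene hspbp1, unc45a, unc45b, 2 serpinh1 genes, hsf1, hsf2, hsf4, hsf5, hsf2bp, hspbap1 and hspg2. The rule goes by name alone, and hspg2 encodes the matrix protein perlecan and hspb11 an intraflagellar transport protein. The CCT subunit gene tcp1 is not a member, because its symbol begins differently. Of the 107 genes, 94 passed the filter on low counts in every fit of exposed and control pools and of control stages. In at least 1 of these fits 103 passed, and dnajc28, hspa12a.1, hspa12a.2 and hsf2bp passed in none. The gene dnajc28 did pass in the fit for differences of the exposure effect between stages.

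Heat shock proteins and chaperonins fold new proteins, hold damaged ones in solution and hand them on for repair or removal. HSP70 proteins bind unfolded stretches and work with DNAJ proteins, which bring them their clients and set off their ATPase, while HSP90 finishes the folding of selected clients and small HSP keep unfolded proteins from clumping. The CCT ring folds actin and tubulin, and the transcription factor HSF1 switches on the inducible members after heat and other stress. In developing fish some of these genes also serve normal growth, such as hsp90aa1.1 and unc45b, which help to fold myosin in skeletal muscle.

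RNA came from pools of whole zebrafish embryos or larvae of the AB background, continuously exposed to gamma radiation from a caesium source at 0.5, 5 or 50 mGy/h or left unexposed, and collected at 24, 48 or 96 h post fertilization (hpf). In irradiation batch I17, 5 mGy/h (3, 2 and 3 pools at 24, 48 and 96 hpf), 50 mGy/h (3, 3 and 2 pools) and unexposed controls (3 pools at each stage) were compared. At 0.5 mGy/h, 3 pools were set at each stage against controls of their own batch, which were 5 pools of batch I32 at 24 hpf and 4 and 3 pools of batch I10 at 48 and 96 hpf. Another 3 exposed pools of batch I10 at 24 hpf were set against 2 controls, which also served as the 24 hpf stage of the I10 controls. All of these I10 pools at 24 hpf were left out of the 46 samples that the study kept. The lowest dose rate and the others never shared a batch, and their difference cannot be told apart from that between batches. The samples of a comparison are pools of 1 irradiation batch, so errors and p-values describe the spread between pools, which may be technical, and not between repeated irradiations.

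Total gene counts ranged over the samples between about 28278900 and 49971600. Levels are given as CPM, the count of a gene relative to the TMM-scaled total of its sample, and since CPM is not set per gene length, levels of different genes are not compared. A gene was called higher or lower where the edgeR quasi-likelihood test gave an adjusted p-value (Benjamini-Hochberg, over all genes tested) under 0.01 and the change was 1.5-fold or more. Fold changes are on the log2 scale, exposed over control or later over earlier stage, with their standard error (SE). Marker genes of skeletal muscle and of neurons were counted in every group, with no gene at 0 throughout. Reads that mapped to more than 1 place are not in the counts, so the values of near-identical copies, such as hsp70.1, hsp70.3, hsp70l, hspa1b and hspa2, or genes that share a symbol, carry an error of unknown size. In bulk samples, fewer cells of a type and less RNA per cell cannot be told apart.

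At 24 hpf, 10 of 97 members tested were called higher and 3 lower at 5 mGy/h, and 10 were called higher and 0 lower at 50 mGy/h, each against the 3 unexposed controls. Over all 18358 genes tested, 6.68% were called higher and 3.21% lower at 5 mGy/h, and 4.17% higher and 1.71% lower at 50 mGy/h. The median log2 fold change over the members was 0.12 at 5 mGy/h and 0.21 at 50 mGy/h, against -0.06 and -0.02 over all genes. Both dose rates share their controls, so the values at 5 and 50 mGy/h are given side by side and are not independent. At 50 mGy/h, in the edgeR test 40 members were below an unadjusted p of 0.05, as were 34.7% of all genes, and none was called lower by DESeq2. The calls came from every family: 3 CCT, 2 HSP90, 2 HSP70, 1 small HSP, 1 DNAJ and 1 other gene were higher at 5 mGy/h, while 50 mGy/h gave 1 CCT, 2 HSP90, 3 HSP70, 1 small HSP, 1 DNAJ and 2 other genes.

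The calls at 24 hpf depended on single pools. The share of all genes called is not given for the fits without a pool, so these counts do not set the members apart from other genes. At 5 mGy/h, no member stayed called without exposed replicate 2, control replicate 1 or control replicate 4, 1 did without exposed replicate 4 and 7 without exposed replicate 1, while 21 were called without control replicate 3. At 50 mGy/h, 0 were called without control replicate 1, 1 without control replicate 4, 3 without exposed replicate 4, 5 without exposed replicate 3 and 15 without control replicate 3. DESeq2 called 26 of the 94 members to which it gave an adjusted p at 5 mGy/h and 19 of 94 at 50 mGy/h, the edgeR calls among them, and 16.6% and 13.2% of all such genes.

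**Figure D1:**
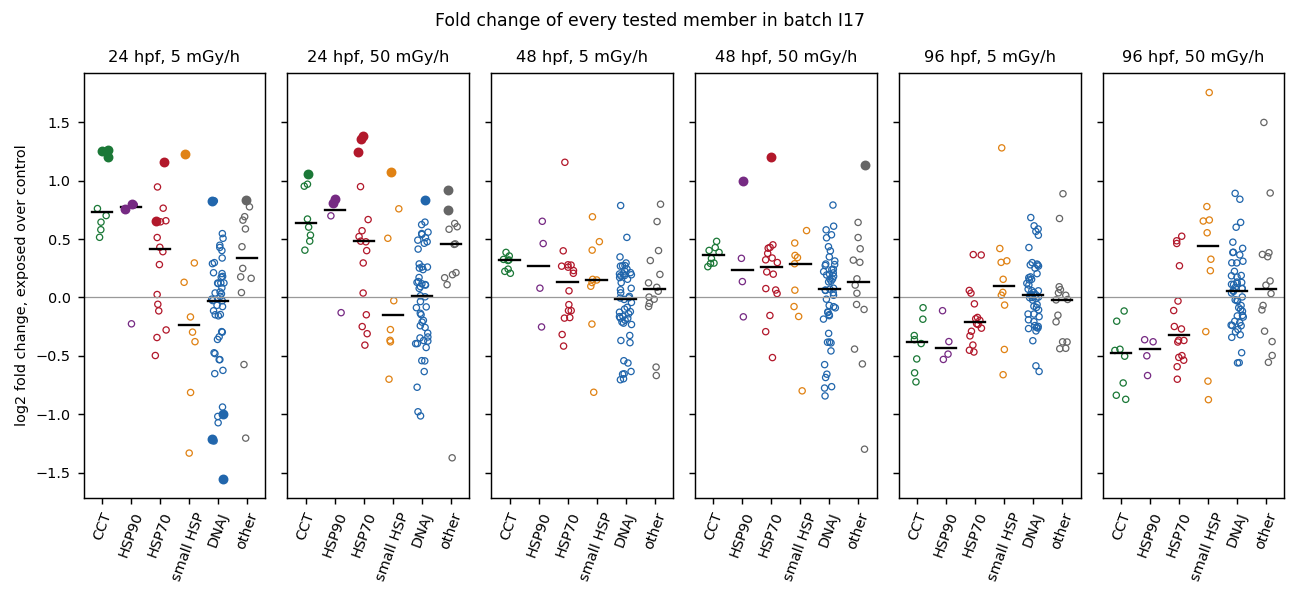
Log2 fold change (exposed over control) of each tested member in the 6 comparisons of batch I17, by family. Filled points passed the test (1.5-fold or more and adjusted p under 0.01), open points did not, and the horizontal bar is the median of the family. The 8 CCT genes lie above 0 at 24 and 48 hpf and below 0 at 96 hpf.

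The CCT genes encode subunits of the cytosolic chaperonin ring, which folds actin and tubulin. All 8 were higher in every pool at 5 mGy/h than in every control at 24 hpf, and 7 of 8 were so at 50 mGy/h, a pattern found in 24% and 17.8% of all genes tested. The largest effect was in cct4 (ENSDARG00000013475), the delta subunit, which measured 1644, 2015 and 2176 CPM at 5 mGy/h, 1447, 1489 and 2074 CPM at 50 mGy/h, and 574, 1049 and 804 CPM in the controls. No exposed pool overlapped the I17 controls, of which replicate 1 was the lowest. Unexposed 24 hpf controls of other batches measured 980 to 1467 CPM of cct4 in I32 and 676 to 694 CPM in I10. The I32 range reached the pools at 50 mGy/h but not those at 5 mGy/h. Against the I17 controls, the log2 fold change was 1.27 (SE 0.25, edgeR adjusted p = 0.0033) at 5 mGy/h and 1.06 (SE 0.24, adjusted p = 0.00993) at 50 mGy/h. A pair of gene identifiers carries the symbol of the beta subunit, cct2. The cct2 gene ENSDARG00000104674 measured 904, 1108 and 1263 CPM at 5 mGy/h, 787, 775 and 1163 CPM at 50 mGy/h, and 332, 623 and 464 CPM in the controls. The test gave a log2 fold change of 1.21 (SE 0.25, edgeR adjusted p = 0.0043) at 5 mGy/h and 0.95 (SE 0.25, adjusted p = 0.017) at 50 mGy/h, where it was not called. The other, ENSDARG00000087206, had log2 fold changes of 1.26 (SE 0.26, edgeR adjusted p = 0.0044) and 0.97 (SE 0.26, adjusted p = 0.019) at these dose rates. The other 5 genes, cct3, cct5, cct6b, cct7 and cct8, were not called, with log2 fold changes between 0.51 and 0.76 at 5 mGy/h and between 0.40 and 0.67 at 50 mGy/h. In I32 controls the range of cct3, cct5 and cct7 reached the pools at 5 mGy/h, and that of cct4, cct6b, cct8 and both cct2 genes did not. Outside the members, tcp1, the alpha subunit of the same ring, was called higher at 5 mGy/h, with a log2 fold change of 1.02 (SE 0.24, edgeR adjusted p = 0.0080).

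The CCT genes went up and down together between pools of 1 group as well. Among the 24 hpf controls of batch I17, replicate 1 was lowest and replicate 3 highest for all 8 genes, and the highest pool exceeded the lowest by a median of 1.61-fold. At 48 hpf and 50 mGy/h, replicate 8 was highest and replicate 6 lowest for all 8, by between 1.53-fold and 3.08-fold. The 8 genes of a pool are therefore not separate observations of the group.

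**Figure D2:**
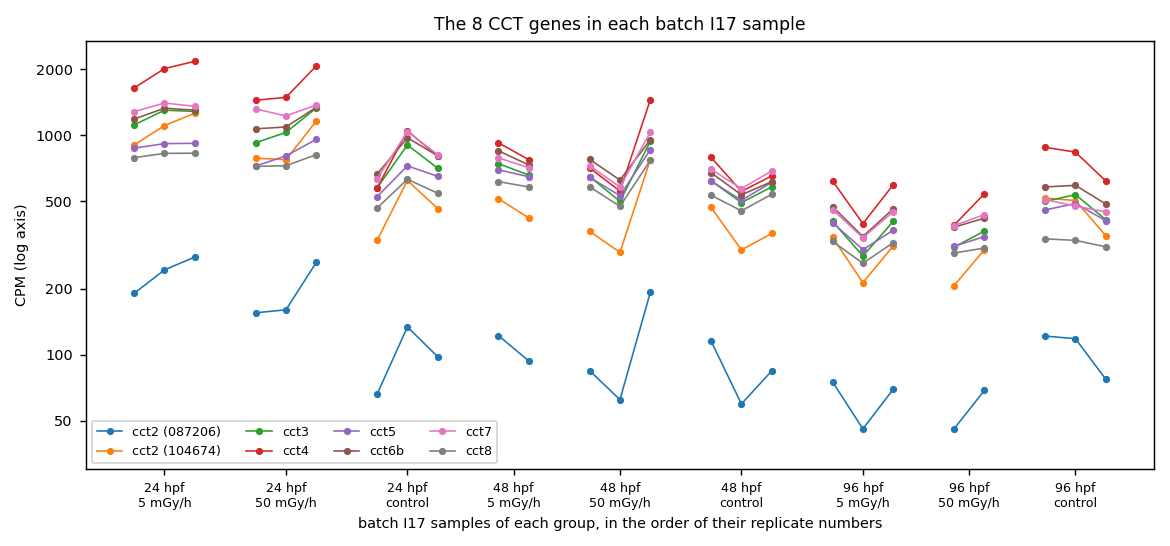
CPM of the CCT genes in each batch I17 pool at 24, 48 and 96 hpf, at 5 mGy/h, at 50 mGy/h and in controls. The axis is logarithmic, each point is a pool, and a line joins the pools of 1 group for 1 gene, in the order of their replicate numbers. At 24 hpf the pools at 5 mGy/h lie above the control pools for all 8 genes, and within a group the lines have similar shapes.

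Of the 4 HSP90 genes, hsp90aa1.1 and hsp90aa1.2 were called higher at both dose rates at 24 hpf. The gene hsp90aa1.1 (ENSDARG00000010478), a cytosolic HSP90 that works on myosin in skeletal muscle, measured 875, 802 and 921 CPM at 5 mGy/h, 684, 821 and 1079 CPM at 50 mGy/h, and 513, 461 and 523 CPM in the controls. Every exposed pool was above every I17 control, while unexposed 24 hpf controls measured 580 to 712 CPM in I32 and 571 to 603 CPM in I10. Its log2 fold change was 0.80 (SE 0.19, edgeR adjusted p = 0.0076) at 5 mGy/h and 0.81 (SE 0.19, adjusted p = 0.00998) at 50 mGy/h. Its neighbour on the chromosome, hsp90aa1.2 (ENSDARG00000024746), measured 141, 106 and 125 CPM at 5 mGy/h, 110.0, 119.9 and 160.4 CPM at 50 mGy/h, and 67.4, 78.1 and 74.4 CPM in the controls, again without overlap. The log2 fold change was 0.76 (SE 0.17, edgeR adjusted p = 0.0065) and 0.85 (SE 0.17, adjusted p = 0.0051) at these dose rates. For hsp90ab1, the constitutive cytosolic HSP90, exposed pools lay between 8759.5 and 11156 CPM and controls between 4885 and 7109.9 CPM, but the log2 fold changes of 0.79 (SE 0.24, edgeR adjusted p = 0.025) and 0.70 (SE 0.24, adjusted p = 0.051) at 5 and 50 mGy/h did not pass. Its unexposed 24 hpf controls measured 7758 to 8950 CPM in I32 and 5217 to 5314 CPM in I10. The gene of the endoplasmic reticulum, hsp90b1, measured 92.4 to 101 CPM at 5 mGy/h, 88.5 to 113 CPM at 50 mGy/h and 110.1 to 115 CPM in the controls, with log2 fold changes of -0.23 (SE 0.14) and -0.13 (SE 0.14) that did not pass.

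Among the HSP70 genes, hsp70.3 (ENSDARG00000021924), one of the heat-inducible forms, measured 47.8, 41.1 and 36.9 CPM at 5 mGy/h, 35, 47.7 and 60.7 CPM at 50 mGy/h, and 16.8, 22.8 and 17.1 CPM in the controls. The groups did not overlap. The log2 fold change was 1.16 (SE 0.20, edgeR adjusted p = 0.0019) at 5 mGy/h and 1.36 (SE 0.20, adjusted p = 8.5e-04) at 50 mGy/h. The call at 50 mGy/h was lost without control replicate 1. The inducible hsp70l (ENSDARG00000055723) measured 5.23, 5.39 and 3.76 CPM at 5 mGy/h, 4.63, 6.20 and 6.75 CPM at 50 mGy/h, and 2.02, 3.45 and 2.10 CPM in the controls, and again no exposed pool was as low as an I17 control. Unexposed 24 hpf controls of other batches measured 2.02 to 5.24 CPM of hsp70l in I32 and 1.35 to 2.06 CPM in I10. The I32 range reached pools at both dose rates. Only the higher dose rate passed, with a log2 fold change of 1.25 (SE 0.25, edgeR adjusted p = 0.0051) at 50 mGy/h and 0.95 (SE 0.26, adjusted p = 0.016) at 5 mGy/h. DESeq2 called hsp70l at 5 mGy/h too. The gene hspa2 measured 4.14, 4.75 and 2.95 CPM at 5 mGy/h, 4.43, 6.36 and 7.20 CPM at 50 mGy/h, and 2.18, 2.73 and 2.12 CPM in the controls. It was called at 50 mGy/h, with a log2 fold change of 1.38 (SE 0.24, edgeR adjusted p = 0.0022), and had 0.76 (SE 0.25, adjusted p = 0.034) at 5 mGy/h.

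Other HSP70 genes were closer to the controls. The gene hspa14, whose product sits at the ribosome and meets new chains, measured 31.1, 31.5 and 33.5 CPM at 5 mGy/h, 28.1, 26.4 and 32.3 CPM at 50 mGy/h, and 21.0, 20.5 and 19.9 CPM in the controls, with no overlap and little spread. Its log2 fold change was 0.65 (SE 0.14, edgeR adjusted p = 0.0046) at 5 mGy/h, where it was called, and 0.52 (SE 0.14, adjusted p = 0.017) at 50 mGy/h. For hspa5, the HSP70 of the endoplasmic reticulum, the log2 fold changes were 0.66 (SE 0.19, edgeR adjusted p = 0.020) and 0.67 (SE 0.19, adjusted p = 0.023), and for the constitutive hspa8 gene ENSDARG00000068992 they were 0.65 (SE 0.20, adjusted p = 0.029) and 0.57 (SE 0.20, adjusted p = 0.057). Neither was called. In all, 8 of 16 HSP70 genes tested were above every control in every pool at 5 mGy/h, and 7 at 50 mGy/h, against the 24% and 17.8% of all genes given above.

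In the small HSP family, hspb1 (ENSDARG00000041065), the HSP27 gene, whose product protects actin filaments, stood apart. It measured 432, 509 and 562 CPM at 5 mGy/h, 362, 421 and 560.4 CPM at 50 mGy/h, and 160.3, 264 and 218 CPM in the controls, with every exposed pool above every control. The log2 fold change was 1.23 (SE 0.22, edgeR adjusted p = 0.0022) at 5 mGy/h and 1.08 (SE 0.22, adjusted p = 0.0051) at 50 mGy/h. No other small HSP gene was called, and the family's median log2 fold change was -0.23 at 5 mGy/h and -0.15 at 50 mGy/h. The nearest to a call was hspb9l, with 18.9, 17.1 and 15.7 CPM at 5 mGy/h, 34.8, 16.5 and 19.3 CPM at 50 mGy/h, and 15.2, 13.0 and 14.2 CPM in the controls. Its highest value came from replicate 1 at 50 mGy/h alone.

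The DNAJ genes, the largest family, did not move as a group, and their median log2 fold change was -0.03 at 5 mGy/h and 0.01 at 50 mGy/h. The gene dnaja, a class A partner of HSP70, measured 158, 127 and 137 CPM at 5 mGy/h, 137, 124 and 159 CPM at 50 mGy/h, and 68.4, 87.3 and 82.9 CPM in the controls. It was called at both dose rates without overlap, with log2 fold changes of 0.83 (SE 0.16, edgeR adjusted p = 0.0036) and 0.84 (SE 0.16, adjusted p = 0.0043). The 3 members called lower were all DNAJ genes at 5 mGy/h. The gene dnajc5ab encodes a cysteine string protein, a chaperone of synaptic vesicles, and measured 8.64, 6.61 and 6.23 CPM at 5 mGy/h, 16.5, 11.7 and 7.72 CPM at 50 mGy/h, and 13.6, 14.2 and 15.5 CPM in the controls. The pools at 5 mGy/h were below all controls, while those at 50 mGy/h lay on both sides, and the log2 fold change was -1.0 (SE 0.24, edgeR adjusted p = 0.0083) at 5 mGy/h and -0.24 (SE 0.23, adjusted p = 0.48) at 50 mGy/h. It shares the symbol dnajc5 with a second gene, ENSDARG00000042948, which was not called and had means of 3.22 CPM at 5 mGy/h and 3.21 CPM in the controls. The summed CPM of 6 neuron markers was 127 to 136 at 5 mGy/h, 115 to 146 at 50 mGy/h and 194 to 234 in the controls, and the part of this in the change of dnajc5ab was not tested.

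The other genes called lower were weakly counted. The dnajc11 gene ENSDARG00000102696, of a mitochondrial protein, shares its symbol with a second gene. It measured 1.02, 0.882 and 0.951 CPM at 5 mGy/h, 2.27, 2.12 and 1.32 CPM at 50 mGy/h, and 3.60, 2.12 and 2.73 CPM in the controls. The log2 fold change was -1.55 (SE 0.29, edgeR adjusted p = 0.0028) at 5 mGy/h and -0.54 (SE 0.27, adjusted p = 0.16) at 50 mGy/h. The second dnajc11 gene, ENSDARG00000011196, was counted far more and was not called. Its means were 44.3 CPM at 5 mGy/h and 39.3 CPM in the controls. For dnajc4 the values were 0.723, 1.18 and 0.761 CPM at 5 mGy/h, 1.77, 1.2 and 1.73 CPM at 50 mGy/h, and 1.80, 2.37 and 2.0 CPM in the controls, with log2 fold changes of -1.22 (SE 0.30, edgeR adjusted p = 0.0099) and -0.37 (SE 0.28, adjusted p = 0.36). At 5 mGy/h dnajc4 and dnajc11 ENSDARG00000102696 were below all controls. The call of dnajc4 was lost when any single pool was left out.

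Of the remaining members, unc45a, the myosin chaperone of most cell types, measured 42.6, 50.7 and 52.6 CPM at 5 mGy/h, 34.5, 38.3 and 48.3 CPM at 50 mGy/h, and 22.1, 32.9 and 26.7 CPM in the controls. It was called at 5 mGy/h, with a log2 fold change of 0.84 (SE 0.18, edgeR adjusted p = 0.0053), and had 0.58 (SE 0.18, adjusted p = 0.035) at 50 mGy/h. The mitochondrial chaperonin genes hspe1 (HSP10) and hspd1 (HSP60), which lie next to each other in the genome, were both above every control in every exposed pool. For hspe1 the values were 240.2, 285 and 273 CPM at 5 mGy/h, 380.2, 231 and 259.7 CPM at 50 mGy/h, and 139, 174 and 155 CPM in the controls. It was called at 50 mGy/h, with a log2 fold change of 0.92 (SE 0.20, edgeR adjusted p = 0.0068), and had 0.78 (SE 0.20, adjusted p = 0.011) at 5 mGy/h. The log2 fold changes of hspd1, 0.69 (SE 0.18, edgeR adjusted p = 0.013) and 0.61 (SE 0.18, adjusted p = 0.030), did not pass. The exchange factor gene hspbp1 measured 21.5, 18.2 and 21.6 CPM at 5 mGy/h, 25.0, 19.4 and 23.4 CPM at 50 mGy/h, and 13.0, 13.3 and 14.8 CPM in the controls, and was called at 50 mGy/h, with a log2 fold change of 0.75 (SE 0.15, edgeR adjusted p = 0.0053).

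The gene of the regulator, hsf1, was not called, and the activity of its protein was not measured. For hsf1 the values were 15.1, 17.2 and 15.2 CPM at 5 mGy/h, 17.7, 16.3 and 15.3 CPM at 50 mGy/h, and 16.9, 13.2 and 16.4 CPM in the controls. The groups overlapped, and the log2 fold changes were 0.04 (SE 0.15) and 0.11 (SE 0.15). For hsf2 they were 0.16 (SE 0.14) and 0.21 (SE 0.14), also not called. The 2 genes of serpinh1, which encodes the collagen chaperone HSP47, were not called either, although ENSDARG00000019949 had 409, 341 and 338 CPM at 50 mGy/h against 245, 227 and 240.4 CPM in the controls, with a log2 fold change of 0.63 (SE 0.16, edgeR adjusted p = 0.014). Its means were 267 CPM at 5 mGy/h and 238 CPM in the controls. The other gene, ENSDARG00000075954, lay the other way at 5 mGy/h, with means of 36.8 CPM and 55.3 CPM in the controls and overlapping pools.

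**Figure D3:**
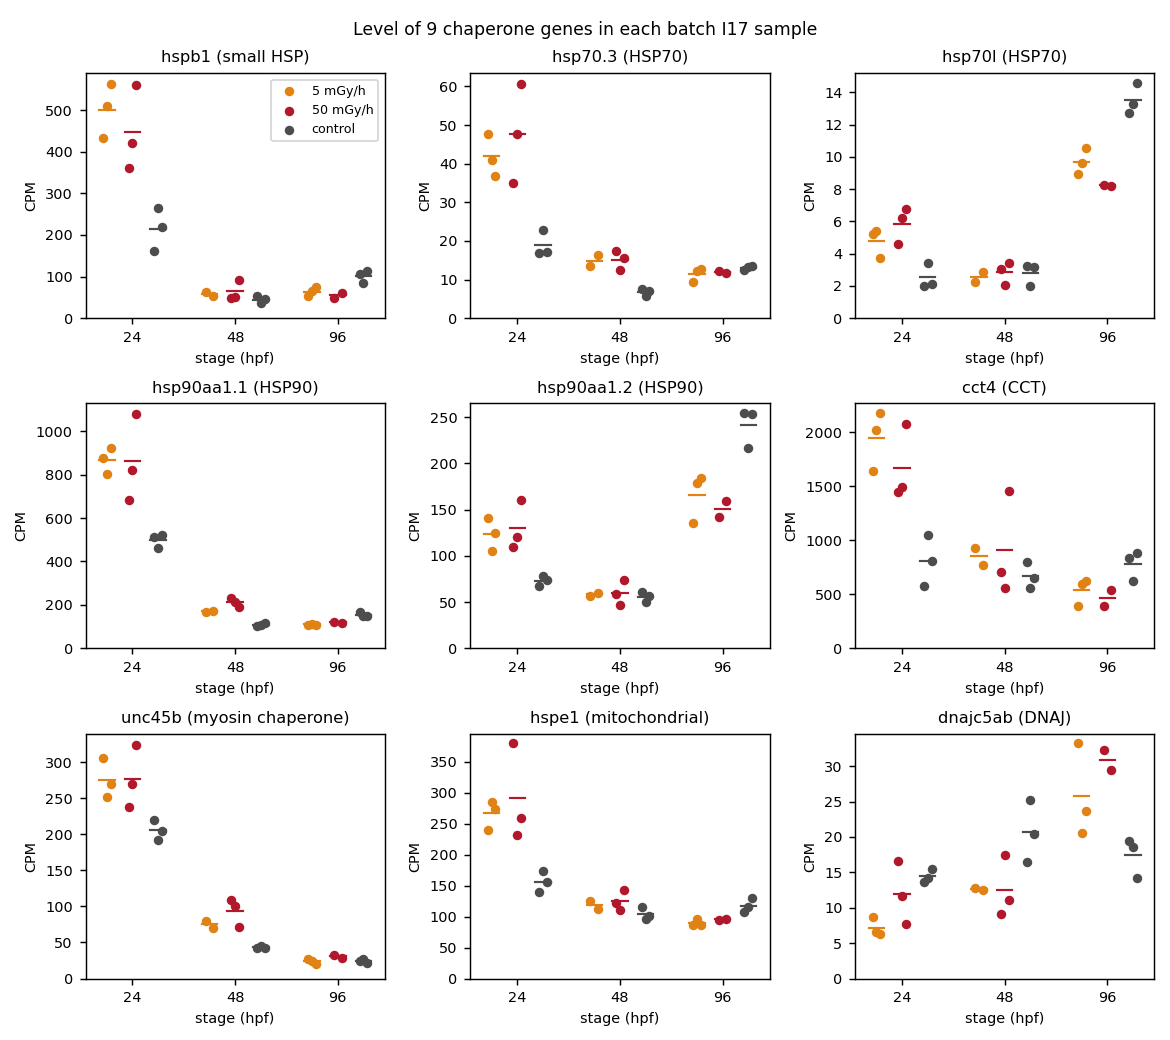
CPM of 9 members in each batch I17 pool by stage, at 5 mGy/h (orange), at 50 mGy/h (red) and in controls (grey), with the group mean as a bar. At 24 hpf hspb1, hsp70.3, hsp70l, hsp90aa1.1, hsp90aa1.2, cct4, unc45b and hspe1 lie above the controls in every exposed pool, and at 96 hpf hspb1, hsp70l, hsp90aa1.1, hsp90aa1.2 and hspe1 lie below them.

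Exposed embryos of batch I17 also stood at an earlier point of the normal course of expression. Projected on the change of batch I10 controls between 24 and 48 hpf, taken as 0% and 100%, pools at 5 mGy/h lay between 5.55% and 9.72%, pools at 50 mGy/h between -2.41% and 8.82%, and controls between 25.6% and 25.8%. The 0% point and the I10 changes rest on 2 controls at 24 hpf that the study did not keep. In hspb1, hsp90aa1.1 and dnaja, the I10 controls were lower at 48 than at 24 hpf, by 2.71, 2.02 and 0.57 on the log2 scale. The I17 controls moved the same way in these genes, by -2.30, -2.22 and -0.74. At 24 hpf, the 0% point, the I10 controls had means of 190, 587 and 71.8 CPM of these genes. The I17 means at 24 hpf were 501, 866 and 141 CPM at 5 mGy/h, and 214, 499 and 79.6 CPM in the controls. For the HSP70 genes the course of the controls differed between the batches. In I10 hsp70l and hspa2 were higher at 48 hpf, by log2 fold changes of 1.23 and 1.24, and hsp70.3 had -0.02, whereas in I17 hsp70.3 was called lower, at -1.51, and hsp70l and hspa2 had 0.14 and 0.19, which did not pass. The CCT genes had I10 control changes between -0.41 and -0.06 over these stages. How much of a member's change with exposure goes with the position was not tested.

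**Figure D4:**
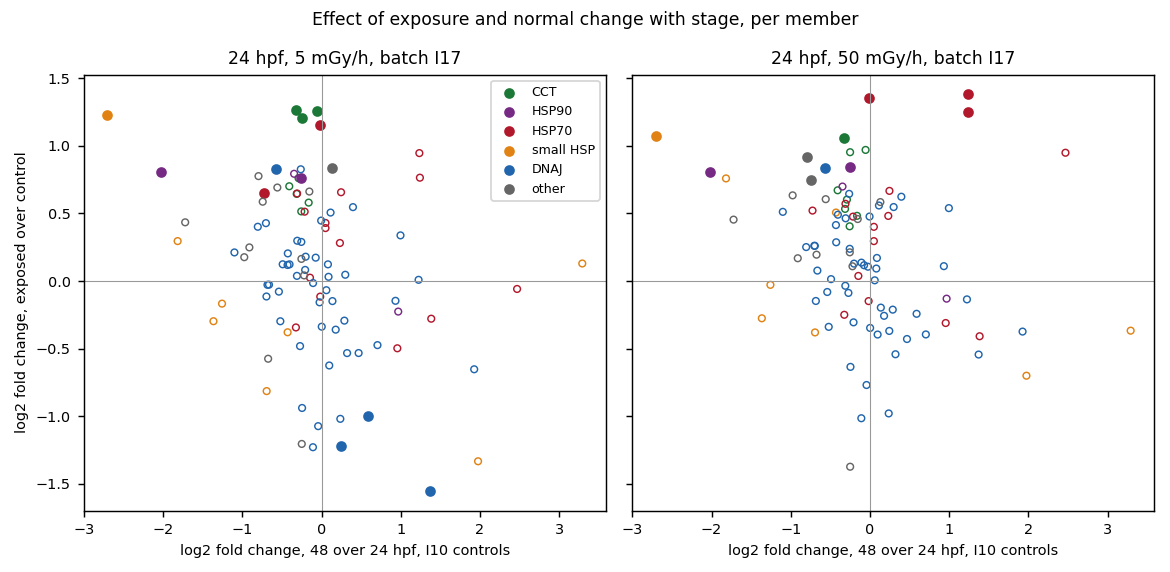
Log2 fold change with exposure at 24 hpf in batch I17 (left, 5 mGy/h, and right, 50 mGy/h) against the log2 fold change of the same member between 24 and 48 hpf in unexposed controls of batch I10. Filled points passed the test with exposure, and colours are families. Called genes lie on both sides of 0 on the horizontal axis, with hspb1 (-2.71) and hsp90aa1.1 (-2.02) far to the left in both panels and hspa2 (1.24) and hsp70l (1.23) to the right at 50 mGy/h.

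At 48 hpf fewer members were called than at 24 hpf, as were fewer of all genes. At 50 mGy/h, 3 of 100 members were called higher and none lower, against 0.757% of all 19802 genes called higher. In the same comparison edgeR gave 20 members and 24.9% of all genes an unadjusted p under 0.05. DESeq2 called 4 of 98 members, beside 6.7% of all genes to which it gave an adjusted p. At 5 mGy/h, 0 members were called by edgeR, against 0.157% of all genes in either direction. An unadjusted p under 0.05 was found in 12 members and 16.4% of all genes. DESeq2 called 3 of 97 members, hsp70.3, hsp90aa1.1 and unc45b, a share near the 2.92% of all such genes. The same genes were called by edgeR at 50 mGy/h against the same controls, so the calls are not independent. The gene hsp70.3 measured 13.5 and 16.3 CPM at 5 mGy/h, 17.4, 12.5 and 15.6 CPM at 50 mGy/h, and 7.57, 5.69 and 6.94 CPM in the controls. Its log2 fold change was 1.2 (SE 0.18, edgeR adjusted p = 0.0042) at 50 mGy/h and 1.16 (SE 0.19, adjusted p = 0.020) at 5 mGy/h. For hsp90aa1.1 the values were 169 and 171 CPM at 5 mGy/h, 233, 213 and 190.4 CPM at 50 mGy/h, and 103, 108 and 114 CPM in the controls, with log2 fold changes of 0.99 (SE 0.15, edgeR adjusted p = 0.0042) at 50 mGy/h and 0.65 (SE 0.16, adjusted p = 0.066) at 5 mGy/h. The muscle myosin chaperone gene unc45b (ENSDARG00000008433) measured 79.9 and 70.2 CPM at 5 mGy/h, 108, 100 and 71.0 CPM at 50 mGy/h, and 42.3, 45.1 and 42.7 CPM in the controls. The test gave a log2 fold change of 1.13 (SE 0.17, edgeR adjusted p = 0.0042) at 50 mGy/h and 0.80 (SE 0.18, adjusted p = 0.052) at 5 mGy/h.

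All 3 genes were above every control in every exposed pool at 48 hpf. All mapped pools together, with 1 removed pool at 5 mGy/h added, gave 0 calls at 50 mGy/h, as did the fits without exposed replicate 5 or without any 1 of the 3 controls, while 8 members were called without exposed replicate 8. The shares of all genes called in these fits are not given. Exposed replicate 8 held the highest CCT values, such as 1453 CPM for cct4 against 710.3 and 557 CPM in the other pools at 50 mGy/h and 794, 555 and 654 CPM in the controls. The position of the pools on the I10 control change was 82.8% to 87.3% at 5 mGy/h, 75.6% to 91.6% at 50 mGy/h and 112% to 115% in the controls, and all 3 called genes were lower at 48 than at 24 hpf in the controls of batch I17, by 1.51, 2.22 and 2.27 on the log2 scale for hsp70.3, hsp90aa1.1 and unc45b. The summed skeletal muscle markers overlapped, at 112010 to 125880 CPM at 5 mGy/h, 81860.4 to 176064 CPM at 50 mGy/h and 94506 to 129510 CPM in the controls. At 5 mGy/h, 30 of 100 members lay above every control, against 17.1% of all genes, and 5 of the 8 CCT genes were among them.

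At 96 hpf no member was called by edgeR at 5 mGy/h or at 50 mGy/h, against 0.275% and 0.162% of all 20378 genes called in either direction, with 27 and 38 of 102 members at an unadjusted p under 0.05, beside 21.3% and 29.1% of all genes. DESeq2 called 1 member (hspb1, lower) at 5 mGy/h and 8 at 50 mGy/h, beside 1.82% and 7.05% of the genes to which it gave an adjusted p. The direction seen at 24 hpf was not kept. All 8 CCT genes had negative log2 fold changes, between -0.72 and -0.09 at 5 mGy/h and between -0.87 and -0.12 at 50 mGy/h. Every exposed pool was below every control for 5 of the 8 CCT genes, 3 of the 4 HSP90 genes and 6 of 16 HSP70 genes at 5 mGy/h, and for 8, 4 and 10 of them at 50 mGy/h. The shares over all genes were 13.7% at 5 mGy/h and 26% at 50 mGy/h, where only 2 exposed pools were compared.

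Single genes at 96 hpf had the following values. The gene hspb1 measured 74.0, 52.1 and 65.8 CPM at 5 mGy/h, 49.1 and 61.1 CPM at 50 mGy/h, and 114, 106 and 85.5 CPM in the controls, with log2 fold changes of -0.66 (SE 0.16, edgeR adjusted p = 0.069) and -0.88 (SE 0.18, adjusted p = 0.020). For hsp70l the values were 10.6, 8.92 and 9.63 CPM at 5 mGy/h, 8.28 and 8.20 CPM at 50 mGy/h, and 14.6, 12.7 and 13.3 CPM in the controls, with log2 fold changes of -0.47 (SE 0.12, edgeR adjusted p = 0.080) and -0.70 (SE 0.13, adjusted p = 0.016). In neither gene did an exposed pool reach the controls. For hsp90aa1.2 they were 184, 135 and 179 CPM at 5 mGy/h, 142 and 159 CPM at 50 mGy/h, and 254, 254 and 217 CPM in the controls, with log2 fold changes of -0.53 (SE 0.14, edgeR adjusted p = 0.097) and -0.67 (SE 0.16, adjusted p = 0.033). The collagen chaperone gene serpinh1 (ENSDARG00000075954) lay the other way, at 10.4, 24.1 and 12.5 CPM at 5 mGy/h, 28.4 and 19.6 CPM at 50 mGy/h, and 6.62, 7.55 and 11.5 CPM in the controls. Its log2 fold change was 0.89 (SE 0.29, edgeR adjusted p = 0.14) at 5 mGy/h and 1.5 (SE 0.32, adjusted p = 0.023) at 50 mGy/h. DESeq2 called serpinh1, hspb15 and dnajc5ab higher, and hspb1, hsp70l, hsp90aa1.2 and both cct2 genes lower, at 50 mGy/h. Projected on the I10 control change from 48 hpf (0%) to 96 hpf (100%), pools stood at 91.8% to 102% at 5 mGy/h, 92.4% to 97.4% at 50 mGy/h and 106% to 112% in the controls. The summed skeletal muscle markers were 74971.6 to 114480 CPM at 5 mGy/h, 82711.2 to 105522 CPM at 50 mGy/h and 113497 to 154570 CPM in the controls. The pools at 50 mGy/h lay below all controls and those at 5 mGy/h overlapped them. The part of this in the member values was not tested.

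The effect of exposure itself differed between 96 and 24 hpf for 23 of 104 members at 5 mGy/h, 4 with a higher and 19 with a lower effect at 96 hpf, and for 17 at 50 mGy/h, 1 higher and 16 lower (edgeR interaction test, adjusted p under 0.01). Over all 21470 genes, 4.63% had a higher and 7.42% a lower effect at 5 mGy/h, and 3.47% and 5.67% at 50 mGy/h. The median log2 difference over all genes was 0.12 and 0.09. The effect of 5 mGy/h was lower at 96 hpf in 5 of 8 CCT genes, 3 of 4 HSP90 genes (all but hsp90b1), 5 of 16 HSP70 genes, 1 of 10 small HSP genes, 1 of 52 DNAJ genes and 4 of 14 others. The log2 difference of the effect was -1.32 for hsp90aa1.1 (SE 0.20, edgeR adjusted p = 2.0e-04) and -1.93 for hspb1 (SE 0.33, adjusted p = 4.5e-04) at 5 mGy/h. It was -1.21 for hsp90aa1.1 (SE 0.22, edgeR adjusted p = 7.9e-04), -1.99 for hspb1 (SE 0.35, adjusted p = 7.2e-04) and -1.99 for hsp70l (SE 0.34, adjusted p = 4.6e-04) at 50 mGy/h. Between 48 and 24 hpf the effect differed for 0 members by edgeR at either dose rate, against 0.778% of all genes at 5 mGy/h and 1.28% of them at 50 mGy/h. At an unadjusted edgeR p under 0.05 there were 22 and 15 members, beside 20.9% and 21.2% of all genes. DESeq2 called 0 members for this difference, beside 2.83% and 3.68% of the genes to which it gave an adjusted p.

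These counts depended on single pools too. Again the share of all genes is not given for the fits without a pool. At 5 mGy/h, between 8 and 15 members differed between 96 and 24 hpf without 24 hpf exposed replicate 2 (15) or 4 (13), 24 hpf control replicate 1 (9) or 4 (12), 96 hpf exposed replicate 10 (8), or 96 hpf control replicate 9 (10) or 10 (13). At 50 mGy/h, between 1 and 10 did without 24 hpf exposed replicate 4 (9), 24 hpf control replicate 1 (8) or 4 (10), 96 hpf exposed replicate 10 (1) or 11 (8), or 96 hpf control replicate 9 or 10 (9 each). For the difference between 48 and 24 hpf at 50 mGy/h, 6 members were called without 48 hpf exposed replicate 8 and 1, hsp70l, without 24 hpf control replicate 3.

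Between 50 and 5 mGy/h, 0 members were called by edgeR or DESeq2 at any stage, with 7, 0 and 3 members at an unadjusted p under 0.05 at 24, 48 and 96 hpf, beside 6.24%, 3.11% and 3.75% of all genes. Over all genes, edgeR called 0%, 0% and 0.0589% at these stages, and DESeq2 0%, 0.00767% and 0.103%. At 24 hpf the log2 difference, 50 over 5 mGy/h, was 0.62 for hspa2 (SE 0.24), 1.01 for the dnajc11 gene ENSDARG00000102696 (SE 0.30) and 0.75 for dnajc5ab (SE 0.24), each with an edgeR adjusted p of 0.78. For hspb1 it was -0.15 (SE 0.22) and for hsp90aa1.1 0.00 (SE 0.19).

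At 0.5 mGy/h no member was called at 24 hpf by edgeR, against 0.0694% of all 18721 genes in batch I32 and 0.0104% of all 19180 genes in batch I10. In I32, 30 of 97 members and 13.4% of all genes were at an unadjusted p under 0.05, while in I10 there were 10 members and 10.3% of all genes. DESeq2 called dnajc5ab lower in I32 and 0 members in I10, beside 0.695% and 0.0546% of the genes to which it gave an adjusted p. In batch I32, 21 of 97 members, among them all 4 HSP90 genes, 6 of 16 HSP70 genes and 9 of 49 DNAJ genes, were above every one of the 5 controls in all 3 exposed pools, against 3.87% of all genes. With the 3 exposed pools and the control that the study removed as potential outliers put back, 4 members remained above all controls, against 0.299% of all genes. In batch I10, 7 of 97 members lay above both controls and 16 below, against 11.8% and 14.7% of all genes. The developmental position was -13.6% to -13.0% in exposed and -14.6% to -11.2% in control pools of I32, on the scale of the batch I17 controls, and -12.4% to -10.3% and -20.3% to -12.5% in I10.

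Of the members nearest to a call in I32, dnajb1b and a serpinh1 gene had the other sign in I10, and dnajc5ab had the same sign. The HSP70 partner gene dnajb1b measured 48.2, 43.3 and 45.6 CPM at 0.5 mGy/h and 29.2, 31.6, 36.2, 34.9 and 27.7 CPM in the controls of I32, and 36.4, 29.3 and 27.7 CPM against 49.7 and 33.1 CPM in I10. The log2 fold change was 0.53 (SE 0.10, edgeR adjusted p = 0.016) in I32 and -0.40 (SE 0.18, adjusted p = 0.48) in I10. The serpinh1 gene ENSDARG00000019949 measured 309, 299.6 and 305 CPM at 0.5 mGy/h and 181, 223, 239.9, 220.1 and 204 CPM in the controls of I32, with a log2 fold change of 0.52 (SE 0.10, edgeR adjusted p = 0.017), and had -0.35 (SE 0.14, adjusted p = 0.45) in I10. In both genes the exposed pools of I32 lay above all 5 controls, and the signs differed between batches, a difference that was not tested. The gene dnajc5ab was lower in both, at 9.68, 6.96 and 7.99 CPM at 0.5 mGy/h against 16.2, 14.8, 14.2, 11.4 and 12.9 CPM in the controls of I32, and at 18, 10.4 and 12.4 CPM against 21.2 and 19.6 CPM in I10. Its log2 fold change was -0.75 (SE 0.13, edgeR adjusted p = 0.016) in I32 and -0.57 (SE 0.20, adjusted p = 0.44) in I10. The 8 CCT genes had log2 fold changes between -0.06 and 0.16 in I32 and between 0.20 and 0.38 in I10.

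At 48 and 96 hpf 0.5 mGy/h also gave 0 calls by edgeR and DESeq2, against 0.0505% and 0% of all genes by edgeR and 1.3% and 0.265% by DESeq2. In the edgeR test 22 and 23 of 101 members were at an unadjusted p under 0.05, beside 20.1% and 20.8% of all genes. At 48 hpf the exposed pools differed among themselves in the inducible HSP70 genes. For hsp70l the exposed pools measured 23.0, 9.42 and 3.51 CPM and the controls 4.16, 3.01, 4.93 and 3.24 CPM, and for hsp70.1 they measured 3.04, 1.65 and 0.586 CPM against 0.571, 0.492, 0.849 and 0.53 CPM. Replicates 5 and 6 lay above all 4 controls in both genes, with replicate 5 the highest, and replicate 7 lay among the controls. The log2 fold changes were 1.64 (SE 0.40, edgeR adjusted p = 0.050) for hsp70l and 1.51 (SE 0.41, adjusted p = 0.063) for hsp70.1. On the 24 to 48 hpf change of I17 controls, the exposed pools stood at 60.7% to 63.7% and the controls at 70.8% to 81.5%. On the 48 to 96 hpf change, the 96 hpf pools stood at 82.4% to 91.1% and their controls at 80.4% to 81.6%. The part of these positions in the member values was not tested. At 96 hpf all 8 CCT genes had positive log2 fold changes, between 0.38 and 0.75, with overlapping groups. For cct4 the exposed pools had 576, 1196 and 789.6 CPM and the controls 482, 433 and 609 CPM. The gene dnajc5ab had 14.4, 4.14 and 7.72 CPM in exposed pools and 20, 23.0 and 15 CPM in the controls, and its log2 fold change of -1.14 (SE 0.37, edgeR adjusted p = 0.22) did not pass. It was 1 of 3 members called without exposed replicate 9, the others being dnajb11 and hspb9.

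In unexposed fish more members were called with stage than in any comparison of exposed and control pools. In batch I17 controls, 12 of 102 members were called higher and 16 lower at 48 than at 24 hpf, against 19.3% and 13.3% of all genes, and 20 higher and 14 lower at 96 than at 48 hpf, against 23.2% and 20.1%. In batch I10 controls the numbers were 15 and 17 for the first step, against 19.1% and 12.8%, and 18 and 17 for the second, against 23.7% and 20.7%. Of the members tested in both batches, 10 were called higher at 48 hpf in both (90.9% of those called in I17 and 66.7% in I10) and 11 lower (68.8% and 64.7%). At 96 hpf, 14 were higher in both (70% and 77.8%) and 7 lower (50% and 43.8%), and hsp70.3 was called in opposite directions.

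The muscle chaperone pair was high at 24 hpf and lower afterwards. In I17 controls, hsp90aa1.1 measured 513, 461 and 523 CPM at 24 hpf, 103, 108 and 114 CPM at 48 hpf and 151, 167 and 148 CPM at 96 hpf. For unc45b the values were 219.6, 192 and 204 CPM, then 42.3, 45.1 and 42.7 CPM, then 21.2, 24.2 and 27.1 CPM. The stages did not overlap in either gene, and at 48 against 24 hpf the log2 fold changes were -2.22 (SE 0.13, edgeR adjusted p = 1.45e-09) and -2.27 (SE 0.12, adjusted p = 5.8e-10), with -2.02 and -1.72 in I10. The adjacent gene hsp90aa1.2 took another course, with 67.4, 78.1 and 74.4 CPM at 24 hpf, 61.1, 50.0 and 56.2 CPM at 48 hpf and 254, 254 and 217 CPM at 96 hpf, and a log2 fold change of 2.15 (SE 0.13, edgeR adjusted p = 1.2e-09) for the later step in I17 and 1.12 (SE 0.09) in I10.

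The small HSP genes took different courses. The muscle small HSP gene hspb6 (HSP20) measured 1.58, 1.55 and 1.71 CPM at 24 hpf, 14.9, 17.5 and 16.8 CPM at 48 hpf and 40.6, 37.7 and 42.6 CPM at 96 hpf in I17 controls, called higher at each step in both batches. At 48 against 24 hpf the log2 fold change was 3.31 (SE 0.14, edgeR adjusted p = 3.7e-11). In contrast hspb1 measured 160.3, 264 and 218 CPM at 24 hpf, 52.0, 35.9 and 45.1 CPM at 48 hpf and 114, 106 and 85.5 CPM at 96 hpf, with log2 fold changes of -2.30 (SE 0.19, edgeR adjusted p = 8.0e-08) and then 1.23 (SE 0.18, adjusted p = 3.1e-05). The same directions were called in I10. The gene hspb9 was lower at 48 hpf in I17, by 2.14 on the log2 scale, and in I10, by 1.26. In the later step hspb15 was called higher in both batches, with log2 fold changes of 2.35 (SE 0.54) in I17 and 3.06 (SE 0.28) in I10, and hspb9l too, with 1.35 (SE 0.19) and 2.19 (SE 0.16), while hspb11 was lower in I17 alone, at -1.14 (SE 0.28).

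Of 16 HSP70 genes, 8 were called higher at 96 than at 48 hpf in I17 controls, where 23.2% of all genes were, and in I10 controls 4 were called higher and 2 lower, where 23.7% and 20.7% were. The HSP110 family gene hspa4l measured 5.64, 4.2 and 5.33 CPM at 24 hpf, 13.6, 13.7 and 11.6 CPM at 48 hpf and 51.8, 50.8 and 45.4 CPM at 96 hpf in I17 controls, called higher at each step in both batches. The inducible hsp70l had 2.02, 3.45 and 2.10 CPM, then 3.23, 1.99 and 3.15 CPM, then 14.6, 12.7 and 13.3 CPM, with a log2 fold change of 2.31 (SE 0.22, edgeR adjusted p = 2.2e-07) for the later step in I17 and 0.95 (SE 0.19, adjusted p = 5.6e-04) in I10. For hsp70.1 the later step was 2.67 (SE 0.38, edgeR adjusted p = 2.2e-05) in I17 and 0.59 (SE 0.35, adjusted p = 0.16) in I10. The gene hsp70.3 differed between the batches, with 16.8, 22.8 and 17.1 CPM, then 7.57, 5.69 and 6.94 CPM, then 13.5, 12.6 and 13.2 CPM in I17, and 14.1 and 13.9 CPM, then 14, 10.5, 17.1 and 11.4 CPM, then 6.67, 7.03 and 7.01 CPM in I10.

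Among the other families, the collagen chaperone genes serpinh1 were lower with age. The gene ENSDARG00000019949 had 245, 227 and 240.4 CPM at 24 hpf, 69.5, 65.1 and 74.0 CPM at 48 hpf and 45.0, 51.2 and 43.7 CPM at 96 hpf in I17 controls, with a log2 fold change of -1.80 (SE 0.12, edgeR adjusted p = 6.2e-09) for the first step, and the second serpinh1 gene, ENSDARG00000075954, had -1.69 (SE 0.20, adjusted p = 2.8e-06) for the later step. The lens factor gene hsf4 was near 0 at 24 hpf, at 0.0719 to 0.0724 CPM, and measured 1.52, 1.05 and 0.941 CPM at 48 hpf. The DNAJ gene dnajc22 was at 0 to 0.0243 CPM at 48 hpf and at 4.54, 5.40 and 3.84 CPM at 96 hpf in I17 controls, and at 2.31, 2.29 and 2.51 CPM at 96 hpf in I10 controls. The auxilin gene dnajc6, which strips clathrin from vesicles in neurons, was higher at 48 hpf, with a log2 fold change of 1.93 in both batches (SE 0.27 in I17 and 0.25 in I10), while dnajc9, the gene of a histone chaperone, was lower at 96 hpf, at -1.38 (SE 0.22) and -1.06 (SE 0.16). In I17 controls dnajc5b was higher (1.76, SE 0.42) and dnajb2 lower (-0.74, SE 0.17) at 48 hpf, and dnajb12 ENSDARG00000087473 higher (0.70, SE 0.17) and dnajb14 lower (-1.22, SE 0.28) at 96 hpf, all as log2 fold changes that passed the edgeR test. The small HSP gene hspb2 was higher at 48 hpf there, at 1.39 (SE 0.29). The heat shock factor gene hsf2 was higher at 96 hpf in both, with log2 fold changes of 1.05 (SE 0.11) and 1.33 (SE 0.09), and hsf1 was not called in I17 and was lower in I10, at -0.59 (SE 0.10). Of the CCT genes, only cct8 was called with stage in I17, at -0.61 for the later step, and none in I10.

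**Figure D5:**
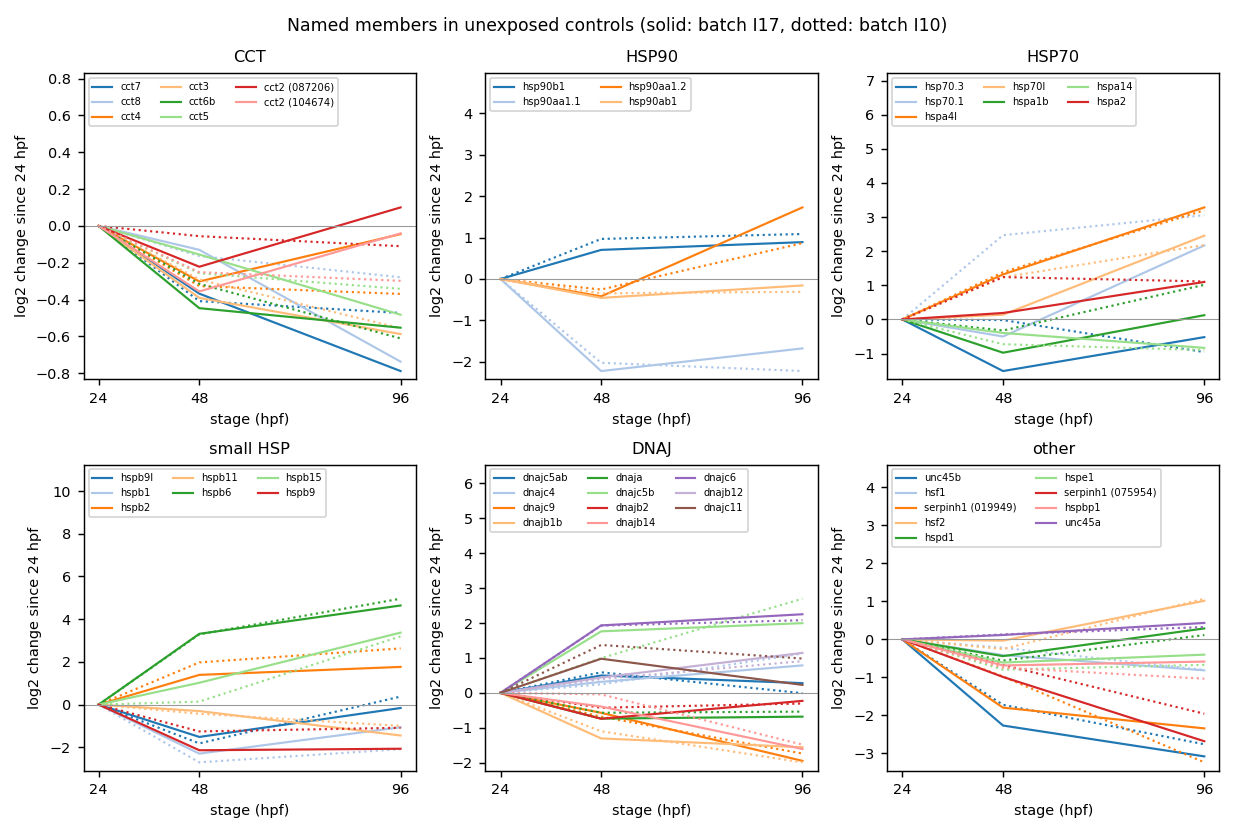
Log2 change since 24 hpf of named members in unexposed controls of batch I17 (solid lines) and batch I10 (dotted lines), by family. The vertical scale differs between panels. The genes dnajc22, hsf4 and hsf5, near 0 at 24 hpf, are not drawn. The genes hspb6 and hspa4l lie above their 24 hpf level at both later stages, and hsp90aa1.1, unc45b and both serpinh1 genes below it.

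Other genes of the pathway were set against the same shares of all genes called higher at 24 hpf, which were 6.68% for 5 mGy/h and 4.17% for 50 mGy/h. Of 28 HSP90 co-chaperones and HSP70 regulators tested at 24 hpf, 2 were called higher at 5 mGy/h, 3 were so at 50 mGy/h, and none was lower. The gene hikeshi, which carries HSP70 into the nucleus, had log2 fold changes of 1.22 (SE 0.21, edgeR adjusted p = 0.0018) and 1.07 (SE 0.21, adjusted p = 0.0044), and nudcd3, an HSP90 partner, 1.06 (SE 0.19, adjusted p = 0.0025) and 0.92 (SE 0.19, adjusted p = 0.0063). The HSP90 activator gene ahsa1b was called at 50 mGy/h alone, at 0.65 (SE 0.14, edgeR adjusted p = 0.0082). Of 16 chaperonin partners only tcp1 was called, at 5 mGy/h. Of 32 genes of folding and the stress response in the endoplasmic reticulum, xbp1 and atf4a, both transcription factor genes of that response, were called higher at 5 mGy/h, with log2 fold changes of 0.86 (SE 0.19, edgeR adjusted p = 0.0066) and 1.15 (SE 0.23, adjusted p = 0.0038), and xbp1 alone at 50 mGy/h, at 0.86 (SE 0.19, adjusted p = 0.0092). The alpha crystallin gene cryaa, of the small HSP superfamily, was not called, and no gene of these lists was called in the exposure comparisons at 48 or 96 hpf or at 0.5 mGy/h.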

How the data were processed

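RNA was sequenced from 58 pools of zebrafish embryos or larvae as reads of 50 bases. The authors aligned them with STAR to GRCz11, and the deposited files hold raw counts per gene of uniquely mapped reads. The counts of the reverse strand were used here. The lines that name no gene, among them reads mapped to several places (14.9% to 25.5% of a sample), stayed out of the totals. The 46 samples kept by the study entered the fits, and beside them the 24 hpf samples of batch I10, whose exposed pools were compared in a fit of their own and whose 2 controls also entered the fit of I10 control stages. Counts were tested with edgeR 4.0.16 (R 4.3.3; TMM scaling, filterByExpr with a minimum count of 10 and a total of 15, quasi-likelihood test, no replicate block) in 1 fit per stage and batch, and a difference of effects between stages as an interaction with adjusted p under 0.01 and no fold limit. Standard errors are the log2 fold change over the root of its F value. CPM use 1 TMM scaling over all samples. The developmental position projects log2(CPM + 1), over genes with a mean of at least 1 CPM, on the change between the control stages of another batch. DESeq2 1.42.0, DESeq2 size factors, no filter, counts without regard to strand, all mapped samples, an adjusted p under 0.05, a replicate block and leaving out each replicate were tried as alternatives. Tested on simulated data for the comparison of 5 mGy/h with controls at 24 hpf (18358 genes), 53% of genes changed 2-fold and 90% of those changed 3-fold were called, and for 5 mGy/h at 48 hpf (19802 genes) 23% and 80%. In these data 100 genes were changed at each fold, and counts were drawn for each gene apart, without an effect shared by a pool. In the real comparison at 24 hpf, 39% of all genes had an unadjusted edgeR p under 0.05. The simulated rates therefore do not give the sensitivity of the real comparisons. The genes named were hsp70l and hspb1, all called with exposure, all CCT and HSP90 genes, hsf1, serpinh1 and unc45 genes, and for each other family the 2 called with the largest change in each direction per step between I17 control stages. Genes outside this rule (for example dnajb1b in batch I32, hspa5, hsf2 and hspd1) were added once their values were known. The members, gene lists and tests were chosen with earlier results of these data known. Gene order came from RefSeq (GRCz12tu), and figures were drawn with matplotlib 3.10.9.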

Additional observations from a re-analysis of the deposited data

Results flagged for a closer look

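For these named genes, the effect of exposure differed between 96 and 24 hpf in the edgeR interaction test, given here as the log2 effect at 96 hpf minus that at 24 hpf. At 5 mGy/h it was lower at 96 hpf for the chaperonin genes cct2 ENSDARG00000087206 (-2.02), cct2 ENSDARG00000104674 (-1.89), cct4 (-1.83), cct3 (-1.19) and cct6b (-1.04). It was also lower for hspb1 (-1.93), hsp70l (-1.45), hsp70.3 (-1.37), hspa2 (-1.13), hspa14 (-0.91), hsp90aa1.1 (-1.32), hsp90aa1.2 (-1.32), hsp90ab1 (-1.21), dnaja (-1.23), unc45a (-1.31), hspe1 (-1.19), hspd1 (-1.17) and hspbp1 (-0.77). It was higher for the dnajc11 gene ENSDARG00000102696 (2.21), for dnajc5ab (1.55) and for hsf4 (5.08), the last with 0 counts in all 3 pools at 5 mGy/h at 24 hpf, so that its size is not defined. At 50 mGy/h it was lower at 96 hpf for hspb1 (-1.99), hsp70l (-1.99), cct2 ENSDARG00000104674 (-1.83), cct4 (-1.83), hspa2 (-1.79), hsp90aa1.2 (-1.55), hsp70.3 (-1.51), hspe1 (-1.24), hsp90ab1 (-1.24), hsp90aa1.1 (-1.21), unc45a (-1.18), hspd1 (-1.14), dnaja (-1.08), hspbp1 (-0.85) and hspa14 (-0.82), and higher for dnajc11 ENSDARG00000102696 (1.42). The dose rates share their controls at each stage.

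Single control pools stood far from their group by Dixon's ratio (gap over range) in 7 of 98 sets of a gene and a group, where chance gives about 1 in 20. Only groups of at least 4 pools were checked, which were the controls at 48 hpf in I10 and at 24 hpf in I32. No exposed group and no group of batch I17 was large enough to be checked. At 48 hpf in batch I10, dnajb14 was lowest in replicate 5 (ratio 0.893), serpinh1 ENSDARG00000075954 lowest in replicate 5 (0.889) and dnajc22 highest in replicate 6 (0.969, at 0.102 CPM). At 24 hpf in batch I32, hsp90aa1.2 was lowest in replicate 1 (0.779, at 43.2 CPM against 54.2 to 57.4 CPM), hspa4l highest in replicate 5 (0.743), hsf4 highest in replicate 2 (0.794) and dnajc22 highest in replicate 6 (1, the only pool with a count).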

How the results depend on the processing

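No result changed direction. Shares of all genes are given here for DESeq2 only, so the other counts do not set the members apart from other genes. With an adjusted p under 0.05, the members called were 29 and 19 for 5 and 50 mGy/h in 24 hpf embryos, 1 and 5 at 48 hpf, 7 at 96 hpf under 50 mGy/h, and under 0.5 mGy/h 1 in I32 and 1 at 48 hpf. The effect then differed between 96 and 24 hpf for 40 and 36 members (5 and 50 mGy/h), and between 48 and 24 hpf for 1 at 50 mGy/h. DESeq2 called 26 and 19 in these 24 hpf comparisons, beside 16.6% and 13.2% of all genes to which it gave an adjusted p. It called 3 at 48 hpf and 5 mGy/h (beside 2.92%), 1 and 8 at 96 hpf (beside 1.82% and 7.05%) and 1 in I32 (beside 0.695%). The 96 against 24 hpf difference was called for 31 of 97 members at 5 mGy/h and 30 of 94 at 50 mGy/h, beside 21% and 18% of such genes. With no filter, 1 was called in I32, 1 at 48 hpf under 0.5 mGy/h (hsp70l), 1 at 48 hpf under 5 mGy/h (hsp70.3) and 6 at 96 hpf under 50 mGy/h. With all mapped samples, 0 were called at 48 hpf and 50 mGy/h, the 96 against 24 hpf difference held for 10 and 8 members (5 and 50 mGy/h), and 4 members lay above every control in I32. Batches I32 and I10 fitted together with the batch as a covariate gave 1 call at 0.5 mGy/h (dnajc5ab). The causes were not tested. At 24 hpf in I17, same-numbered pools had r of -0.216 to 0.428 (mean 0.118, 7 pairs) and other pools -0.467 to 0.362 (mean -0.040, 20 pairs). The mean was also higher for same-numbered pools at 48 and 96 hpf in I17 and in I32, and lower at each stage in I10. These few pairs cannot decide whether the numbers pair the pools. With a replicate block, 7 members were called at 24 hpf and 5 mGy/h and 0 at 48 hpf and 50 mGy/h. No paired analysis was possible because too few numbers are shared for 24 hpf in I10 and between control stages. Leaving out each replicate, calls ranged from 0 to 21 at 24 hpf and 5 mGy/h, 0 to 15 at 50 mGy/h, 0 to 8 at 48 hpf and 50 mGy/h, 0 to 1 at 96 hpf and 50 mGy/h, 0 to 3 at 96 hpf and 0.5 mGy/h (3 without exposed replicate 9), and 0 to 1 in I32 (1, dnajc5ab, without control replicate 2 or 5). For the difference of effects they ranged from 8 to 27 (5 mGy/h) and 1 to 22 (50 mGy/h) between 96 and 24 hpf, and 0 to 6 (50 mGy/h) between 48 and 24 hpf. Of values for single named genes, 563 kept their side of the threshold when a replicate was left out, 141 lost it and 1 gained it. Groups of 2 or 3 pools and 1 irradiation per batch limit what could be called.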

Other observations

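Some of the samples that the study removed had the following values. At 48 hpf and 5 mGy/h, the removed replicate 8 had 7.86 CPM of hsp70.3, 158 CPM of hsp90aa1.1, 74.7 CPM of unc45b, 24.4 CPM of hspb1 and 339 CPM of cct4. For hsp90aa1.1 and unc45b it lay above the 3 controls, as the kept pools did, and for hspb1 and cct4 below them. The study's plot of sample clustering names a removed 96 hpf replicate 9 as 5 mGy/h on one axis and as 50 mGy/h on the other, and the pool at 50 mGy/h was taken as the removed one. With the pool at 5 mGy/h left out in its place, 0 members were called by edgeR at 96 hpf at 5 or 50 mGy/h, with 22 and 19 members at an unadjusted p under 0.05. The replicate 9 at 50 mGy/h had 81.2 CPM of hspb1, 194 CPM of hsp90aa1.2, 10.7 CPM of hsp70l and 718 CPM of cct4, and the values of the first 3 genes were below all controls. At 24 hpf and 0.5 mGy/h in batch I32, the removed replicates 1, 4 and 5 had 49.4, 42.9 and 47.0 CPM of dnajb1b, all above the 5 kept controls, and 19.1, 14.9 and 9.05 CPM of dnajc5ab, on both sides of them.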
